A study of Homo sapiens with 32 samples.

Results

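The 30 genes described here make or control the synthesis of cholesterol and fatty acids in human HEK293T cells, a line derived from embryonic kidney. They were chosen by name as genes of the SREBP pathway, by a rule that uses no measured value, and all 30 were found among the 58721 genes of the deposited tables. The 18 sterol enzymes were HMGCS1, MVK, PMVK, MVD, IDI1, FDPS, FDFT1, SQLE, LSS, CYP51A1, TM7SF2, MSMO1, NSDHL, HSD17B7, EBP, SC5D, DHCR7 and ACAT2. The 6 fatty acid enzymes were FASN, ACACA, SCD, FADS1, FADS2 and ELOVL6. The 6 regulators and carriers were INSIG1, INSIG2, SREBF1, SREBF2, SCAP and STARD4.

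The study measured RNA by RNA-Seq, RNA held by the cap-binding domain of eIF3d, a subunit of the translation initiation factor eIF3, by Subunit-Seq, and N6-methyladenosine (m6A) positions by m6A-eCLIP. RNA-Seq compared cells with wild-type eIF3d (WT) and cells whose eIF3d carries S528D and S529D, serine to aspartate changes that mimic phosphorylation (DD). Subunit-Seq compared immunoprecipitate (IP) with input RNA from cells with HA-tagged eIF3d that holds a cleavage site for TEV protease. In each experiment cells received 600 nM thapsigargin (Tg), which inhibits calcium uptake into the endoplasmic reticulum (ER), for 16 h, or its solvent DMSO. RNA-Seq and Subunit-Seq each had 4 groups of 2 libraries, and where a pair of values is given below, replicate 1 comes first. The tables of gene values cannot show the DD changes themselves. The labels say neither whether a cell line is a single clone nor whether replicates were separate cultures, so p-values measure only the spread between these libraries, which may be technical. In Subunit-Seq that spread was taken from genes of a like level, and a gene's own spread between replicates did not enter its p-value.

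SREBF1 and SREBF2 code for the SREBP transcription factors, which are made as membrane proteins of the ER. When ER sterol is low, the escort protein SCAP carries them to the Golgi, where proteases release the part that enters the nucleus; when sterol is high, INSIG proteins hold SCAP in the ER. The released factors bind sterol response elements, often beside a CCAAT box bound by NF-Y, and raise transcription of genes for sterol and fatty acid synthesis, INSIG1 among them. SREBP-2 is known mainly for sterol genes and SREBP-1c mainly for fatty acid genes.

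Of the 26 genes with an entry in the RefSeq promoter table (GRCh38.p14), 15 held the letters CCAAT, on either strand, in the 250 bases before their outermost start. Over all 27305 promoters of the table the share was 33.0%. The sterol response element was searched as CACNCCAC, in which N is any base, on both strands. It was found in 3 of the 26 genes (SCD, INSIG1 and SREBF2) and in 4.74% of all promoters, and CACNCCAC and CCAAT stood together in these 3 genes and in 1.37% of all promoters. The 3 windows are shown because their genes recur in the comparisons below. Capitals mark a match of CACNCCAC or CCAAT, or of the reverse complement of either, and all 3 are on the plus strand, 5′ to 3′.
SREBF2, chr22:41832855-41833104: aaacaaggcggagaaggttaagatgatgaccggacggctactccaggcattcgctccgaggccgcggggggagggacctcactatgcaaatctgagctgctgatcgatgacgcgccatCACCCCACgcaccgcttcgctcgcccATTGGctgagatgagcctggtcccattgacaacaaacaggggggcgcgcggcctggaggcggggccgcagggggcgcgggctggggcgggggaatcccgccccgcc
INSIG1, chr7:155297628-155297877: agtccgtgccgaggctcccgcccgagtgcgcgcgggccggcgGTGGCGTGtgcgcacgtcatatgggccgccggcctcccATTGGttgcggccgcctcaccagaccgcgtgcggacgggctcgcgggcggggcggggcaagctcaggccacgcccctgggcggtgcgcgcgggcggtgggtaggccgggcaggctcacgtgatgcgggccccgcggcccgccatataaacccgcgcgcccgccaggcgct
SCD, chr10:100346983-100347232: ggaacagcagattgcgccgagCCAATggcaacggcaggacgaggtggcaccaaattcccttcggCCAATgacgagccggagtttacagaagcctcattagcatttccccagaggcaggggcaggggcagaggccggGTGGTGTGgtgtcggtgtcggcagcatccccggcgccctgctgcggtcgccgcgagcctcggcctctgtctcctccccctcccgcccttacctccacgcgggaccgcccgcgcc
In SREBF2 the first match of CACNCCAC begins 132 bases before the start, and a CCAAT match on the minus strand begins 106 bases before it. In INSIG1 these distances are 208 and 170 bases, both on the minus strand. In SCD the CACNCCAC match is on the minus strand 114 bases before the start, and CCAAT stands on the plus strand 229 and 186 bases before it. A match of letters is a description and was not tested for binding. FDFT1, SQLE, ACAT2 and FASN had no entry in the promoter table and were not searched.

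RNA-Seq libraries held 4508228 to 10162095 recovered reads and Subunit-Seq libraries 5102476 to 16856142. For the 30 genes this gave 3 to 957 reads per library in RNA-Seq, with 13 of 240 values under 20 reads, and 0 to 10840 in Subunit-Seq. RNA-Seq replicates differed: DD Tg replicate 2 stood apart from the other replicate 2 libraries, and mitochondrial ribosomal RNA took 25.4% to 57.3% of reads. Among Subunit-Seq libraries, 6395 genes reached 1 RPKM in input DMSO replicate 2, and 8503 to 13799 did in the other 7. VIM, an intermediate filament gene expressed in HEK293T, was at 15.2 to 55.0 RPKM in all 16 libraries, and the leukocyte gene PTPRC was listed at 0 in all 16. KRT18 and KRT8, also taken as expressed in this line, ranged over the 16 libraries from 6.84 to 58.0 and from 0.221 to 8.45 RPKM. PAX2, taken as expressed too, was at 0 to 0.194 RPKM in RNA-Seq and at 0 in replicate 2 of both input groups. In replicate 1 of the inputs it was at 0.749 (DMSO) and 0.314 (Tg), and in the IP libraries at 1.31 to 2.09. The neuronal filament gene NEFM, also expressed in this line, was at 31.9 to 62.2 RPKM in replicate 1 of RNA-Seq and at 0.0693 to 1.23 in replicate 2, and the fibroblast gene COL3A1 at 4.87 to 8.97 and at 0 to 0.223. The stress reference genes bear on the label Tg: TRIB3, a pseudokinase gene induced in the integrated stress response, rose in the Subunit-Seq inputs from 16.0 and 6.56 to 65.3 and 127 RPKM (log2 difference 3.02 ± 0.66, limma adjusted p = 0.00985). For Tg against DMSO in the inputs, 5 of all genes were called. Without the replicate block, with median-ratio scaling, with voom or with a pseudocount of 0.1, 0 were. In the DMSO inputs, 88.1% of all genes tested were higher in replicate 1 than in replicate 2. The RNA-Seq log2 difference of TRIB3 was 0.13 ± 0.91 in WT and -0.81 ± 0.91 in DD cells. The ER chaperone gene HSPA5 differed by 2.54 ± 0.63 in the inputs (limma adjusted p = 0.0909), by 0.73 ± 0.86 in WT and by -0.05 ± 0.86 in DD cells, and DDIT3 (CHOP) by 2.49 ± 0.67 (adjusted p = 0.176), 0.31 ± 0.68 and -1.05 ± 0.68. ATF4 and EIF3D, also kept as references, rose with Tg in the inputs in replicate 2 alone. ATF4 was at 430 and 133 RPKM under DMSO and 405 and 608 under Tg, and EIF3D at 104 and 37.6 and at 79.9 and 257. No RNA-Seq value of TRIB3, HSPA5 or DDIT3 passed, so a rise of these stress genes was not detected in the RNA-Seq libraries labelled Tg. In bulk RNA, fewer cells of a kind and less RNA per cell cannot be told apart.

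Both the highest and the lowest of the 30 genes in RNA-Seq were sterol enzymes, and most of the genes were at a low level. EBP, a sterol isomerase, and PMVK, which phosphorylates mevalonate phosphate, led with RNA-Seq means over the 8 libraries of 32.8 and 25.2 RPKM, a level per kilobase of gene. SCD, the desaturase that makes monounsaturated fatty acids, averaged 10.1 RPKM, NSDHL 9.93, SCAP 9.03 and SQLE 7.78. At the low end LSS, the lanosterol cyclase, averaged 1.35, ELOVL6, a fatty acid elongase, 1.18, and ACACA, which makes malonyl-CoA, 0.954. FADS2 (0.940), STARD4 (0.890) and CYP51A1 (0.393) completed the order. PMVK ranged from 6.11 to 53.5 RPKM over single libraries and EBP from 15.8 to 45.6, and for each pair of neighbours in the order the ranges over the 8 libraries overlapped.

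**Figure D1:**
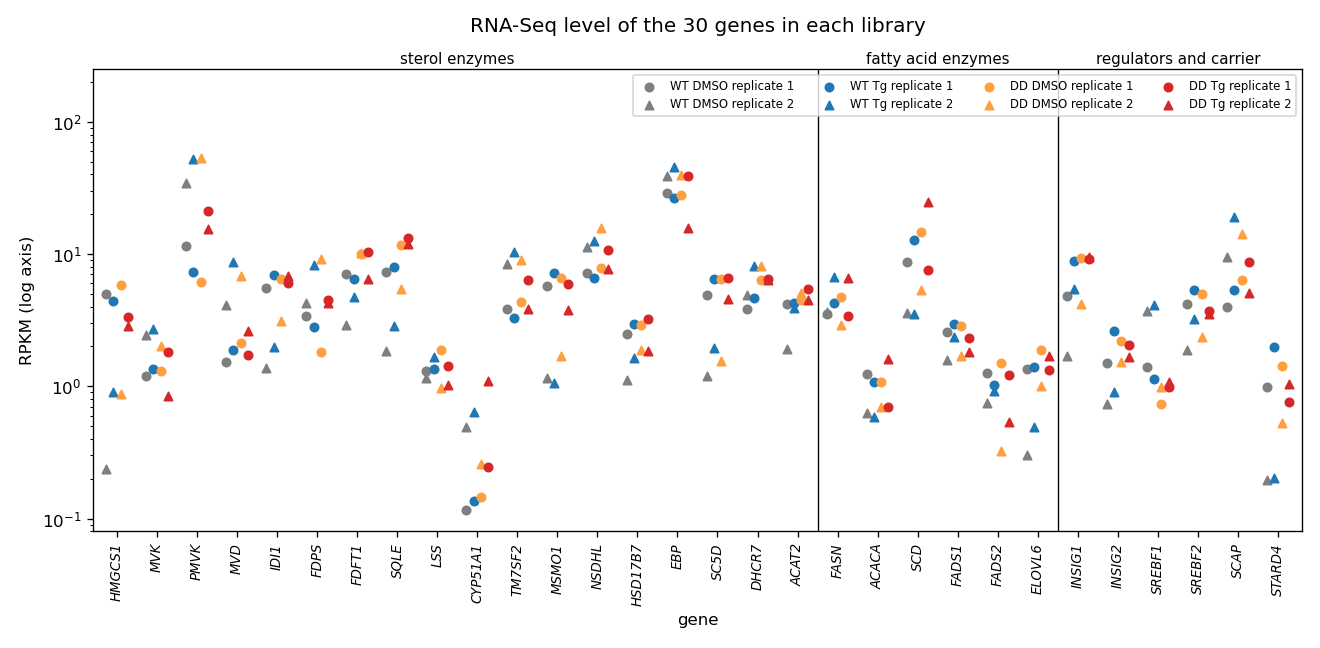
Level of each of the 30 genes in each of the 8 RNA-Seq libraries, in RPKM on a log axis; colours are the 4 groups, circles are replicate 1 and triangles replicate 2. EBP and PMVK lie highest and CYP51A1 lowest, and for many genes circles and triangles separate more than colours do.

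Replicate number divided the pathway. In each of WT DMSO, WT Tg and DD DMSO, 12 of the 26 genes tested were higher in replicate 1, among them HMGCS1, IDI1, SQLE, MSMO1, SC5D, SCD, INSIG1 and SREBF2. Another 10 were higher in replicate 2, namely MVK, PMVK, MVD, FDPS, TM7SF2, NSDHL, EBP, DHCR7, SREBF1 and SCAP. Of all 9637 genes tested, 45.0% were higher in replicate 1 and 31.0% in replicate 2 of these 3 groups, so the division runs through the whole table. HMGCS1, which makes HMG-CoA, was at 4.99 and 0.236 RPKM under DMSO and 4.42 and 0.899 under Tg in WT cells, and at 5.87 and 0.873 under DMSO and 3.33 and 2.84 under Tg in DD cells. Replicate 2 of WT DMSO, WT Tg and DD DMSO was low, with 5 reads behind the value in WT DMSO replicate 2, and DD Tg replicate 2 was near replicate 1. SCAP was at 3.97 and 9.55 RPKM under DMSO and 5.36 and 19.1 under Tg in WT cells, and at 6.34 and 14.1 under DMSO and 8.76 and 5.07 under Tg in DD cells. It showed the opposite order in the first 3 groups, with replicate 2 high, and DD Tg replicate 2 was the lower library of its group. Across all genes tested, the difference of replicate 2 from replicate 1 had a Spearman rho of -0.28 with effective gene length (-0.12 over the 26 genes here); genes are not independent replicates.

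**Figure D2:**
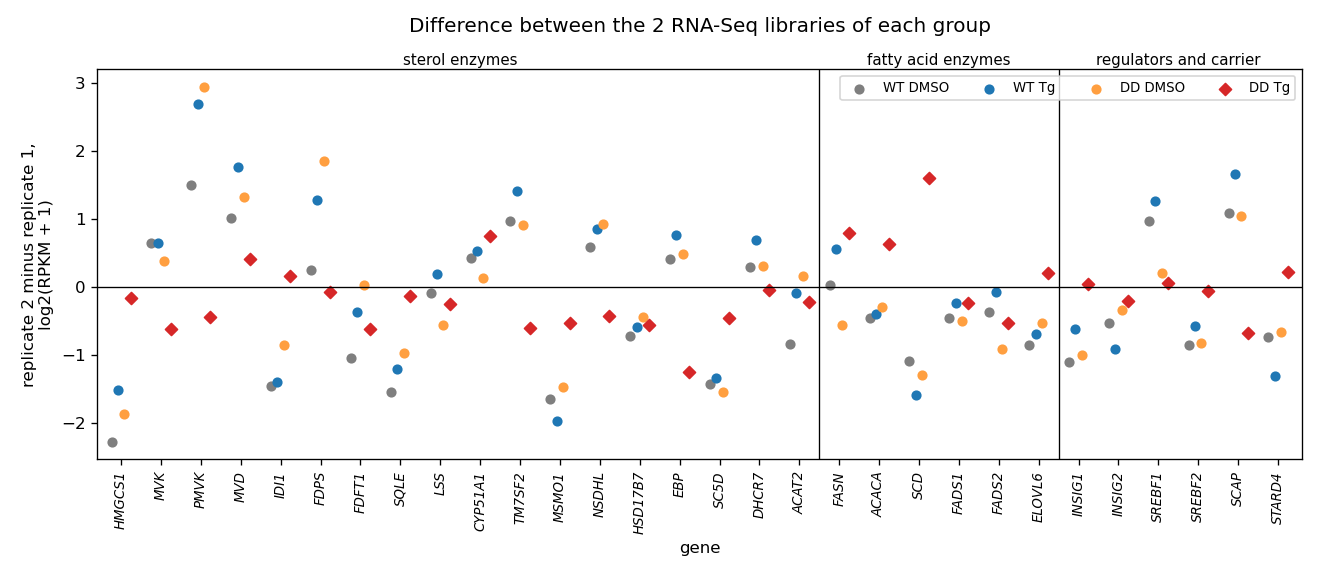
Difference of replicate 2 from replicate 1 in each RNA-Seq group, in log2(RPKM + 1), for the 30 genes; circles are WT DMSO, WT Tg and DD DMSO and red diamonds DD Tg. Circles of a gene mostly fall on the same side of 0, from -2.28 for HMGCS1 to 2.94 for PMVK, while DD Tg often lies near 0 or on the other side, as for SCD at 1.59.

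The first comparison asked whether Tg changed RNA of these genes. In RNA-Seq no gene of the pathway changed with Tg in either genotype: limma called 0 of 26 in WT and 0 of 26 in DD cells, against 0% of all genes in both. No pathway gene had an unadjusted p under 0.05, while 24 and 25 of the 9637 genes did, and voom weights gave 0 calls as well (7 and 8 genes at an unadjusted p under 0.05). The difference between replicate numbers counts as spread in these fits, so they do not show that levels stayed the same. CYP51A1, ACACA, FADS2 and STARD4 had means under 1 RPKM and were not tested.

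INSIG1 (ENSG00000186480.12), the SREBP target that retains SCAP in the ER, was at 4.84 and 1.70 RPKM under DMSO and 8.84 and 5.41 under Tg in WT cells, and at 9.39 and 4.19 under DMSO and 9.14 and 9.44 under Tg in DD cells. Both WT Tg libraries were above both WT DMSO libraries, whereas in DD cells DMSO replicate 1 was as high as the Tg libraries. Its log2 difference with Tg was 1.00 ± 0.63 (SE) in WT cells, with 0.75 and 1.25 in replicates 1 and 2, and 0.49 ± 0.63 in DD cells, with -0.04 and 1.01; the adjusted p from limma was 1 for both. FASN (ENSG00000169710.8), the fatty acid synthase, was at 3.54 and 3.62 RPKM under DMSO and 4.30 and 6.76 under Tg in WT cells, and at 4.76 and 2.92 under DMSO and 3.37 and 6.56 under Tg in DD cells. In WT cells both Tg libraries were higher (log2 difference 0.48 ± 0.54), and in DD cells the groups overlapped. Of the 26 genes, 3 had WT groups that did not overlap, all higher in Tg (INSIG1, FASN and LSS), against 6.55% of all genes. None was lower, against 3.73%.

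In DD cells only SQLE and SREBF1 had groups that did not overlap, both higher in Tg, against 8.59% of all genes; 0 were lower, against 4.14%. SQLE (ENSG00000104549.11), the squalene epoxidase and a control point of sterol synthesis, was at 7.31 and 1.85 RPKM under DMSO and 7.95 and 2.86 under Tg in WT cells, and at 11.8 and 5.48 under DMSO and 13.2 and 11.8 under Tg in DD cells. The DD Tg libraries were the highest and WT DMSO replicate 2 the lowest. The log2 difference with Tg was 0.57 ± 0.72 in DD and 0.27 ± 0.72 in WT cells, each with adjusted p = 1 in limma. In DD cells replicate 1 gave 0.15 and replicate 2, which holds the DD Tg library that stands apart, 0.99. SREBF1, with the values given below, differed by 0.13 ± 0.54 in DD cells. SQLE and SC5D, the desaturase late in the sterol path, were above DMSO in all 4 pairs of libraries with the same genotype and replicate number, against 6.18% of all genes; 0 were below it, against 2.1%. With median-ratio scaling SQLE alone remained so, against 4.28%.

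For the 26 genes together, the median log2 difference with Tg was 0.26 in WT cells, against 0.12 over all genes tested, and 0.02 in DD cells, against 0.02. In WT cells the distance from all genes was 0.13 in replicate 1 and 0.16 in replicate 2. The distance from the whole fit, 0.14, became 0.24 without WT DMSO replicate 1, 0.26 without WT Tg replicate 1 and 0.27 without WT Tg replicate 2. In DD cells it was -0.09 and 0.13. The interaction, the DD response minus the WT response, had a median of -0.29 against -0.10 over all genes, and the distance was -0.37 and 0.05 in replicates 1 and 2. Limma called 0 of 26 for the interaction (0% of all genes), with 21 genes and no pathway gene at an unadjusted p under 0.05, and voom called 0, with 6 genes at that level. The replicates differed in sign for DD cells and for the interaction. SCD was at 8.70 and 3.56 RPKM under DMSO and 12.7 and 3.51 under Tg in WT cells, and at 14.7 and 5.38 under DMSO and 7.52 and 24.7 under Tg in DD cells. DD Tg replicate 2 was its highest library and the groups overlapped in both genotypes, and its difference with Tg in DD cells was -0.88 and 2.01 in replicates 1 and 2. IDI1, which isomerises isopentenyl diphosphate, was at 5.53 and 1.38 RPKM under DMSO and 6.89 and 1.98 under Tg in WT cells, and at 6.45 and 3.12 under DMSO and 6.02 and 6.81 under Tg in DD cells. Replicate 1 was the higher library in 3 groups and DD Tg the exception, and Tg and DMSO overlapped in both genotypes.

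The second comparison asked whether DD cells differed from WT cells. None of the 26 genes was called in DMSO or in Tg, against 0% of all genes in both, although 68 and 82 genes, none of the 26 among them, had an unadjusted p under 0.05; voom also called 0 (28 and 45 genes at an unadjusted p under 0.05). SREBF1 (ENSG00000072310.16, chr17:17811334-17836986), the gene for SREBP-1, was at 1.41 and 3.70 RPKM under DMSO and 1.13 and 4.09 under Tg in WT cells, and at 0.730 and 0.984 under DMSO and 0.993 and 1.08 under Tg in DD cells. All 4 DD libraries were below all 4 WT libraries, by little from WT replicate 1 and by more from WT replicate 2. The log2 difference of DD from WT was -0.86 ± 0.54 in DMSO, with -0.48 and -1.24 in replicates 1 and 2, and -0.69 ± 0.54 in Tg, with -0.09 and -1.29. SREBF1 was the only one of the 26 genes lower in DD in all 4 same-number pairs, against 4.03% of all genes, so the count was near that share. The share of all genes with all 4 DD libraries below all 4 WT libraries was not counted. The gene span overlaps RAI1, and the RNA-Seq kit named in the labels is not the directional one, so reads of the overlap cannot be assigned to a strand.

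SREBF2, the gene for SREBP-2, did not share that order. It was at 4.20 and 1.88 RPKM under DMSO and 5.32 and 3.24 under Tg in WT cells, and at 5.00 and 2.38 under DMSO and 3.74 and 3.51 under Tg in DD cells, with replicate 1 the higher library in each group and DD and WT overlapping. INSIG2, the second INSIG gene, was at 1.50 and 0.730 RPKM under DMSO and 2.60 and 0.908 under Tg in WT cells, and at 2.21 and 1.53 under DMSO and 2.07 and 1.65 under Tg in DD cells. Its DD libraries were above the WT libraries in DMSO (log2 difference 0.45 ± 0.48) and overlapped them in Tg (0.12 ± 0.48). INSIG1 differed by 0.89 ± 0.63 in DMSO, where the groups overlapped, and by 0.37 ± 0.63 in Tg, where they did not.

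Among the sterol enzymes, FDFT1, the squalene synthase, was at 7.06 and 2.90 RPKM under DMSO and 6.44 and 4.75 under Tg in WT cells, and at 9.99 and 10.1 under DMSO and 10.4 and 6.42 under Tg in DD cells. In DMSO both DD libraries were above both WT libraries (log2 difference 0.98 ± 0.59). SQLE, the next enzyme of the path, differed by 0.90 ± 0.72 in DMSO, where groups overlapped, and by 1.20 ± 0.72 in Tg, where both DD libraries were above both WT libraries; the pairs there gave 0.66 and 1.74, the second with the library that stands apart. DHCR7, the last reductase of the path, was at 3.82 and 4.91 RPKM in WT DMSO and 6.39 and 8.14 in DD DMSO, with no overlap (log2 difference 0.62 ± 0.54). In Tg it was at 4.64 and 8.07 and 6.53 and 6.31, with overlap and a log2 difference of 0.05 ± 0.54 that turned negative under median-ratio scaling. The adjusted p of each of these was 1. Of the 4 fatty acid enzymes tested, FADS1, a desaturase of polyunsaturated chains, was the one whose DD and WT groups did not overlap, in Tg. It was at 2.55 and 1.58 RPKM under DMSO and 2.96 and 2.37 under Tg in WT cells, and at 2.85 and 1.71 under DMSO and 2.31 and 1.81 under Tg in DD cells. Both DD Tg libraries were below both WT Tg libraries (log2 difference -0.26 ± 0.46). Reads of FADS1 and FADS2 are uncertain because their spans overlap, as are those of ACAT2, which overlaps TCP1 and SOD2.

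In all 4 same-number pairs, 6 of the 26 genes were higher in DD than in WT (ACAT2, FDFT1, HSD17B7, INSIG1, SC5D and SQLE), against 9.96% of all genes. Scaling bears on this count: with median-ratio scaling, tried after the data were seen, FDFT1 and SQLE remained (against 5.9% of all genes) and SREBF1 remained the lower one (7.11%). That scaling moved the median of all genes from 0.13 to 0.00 in DMSO and from 0.05 to -0.08 in Tg. Relative to all genes, the median of the 26 genes was 0.16 in DMSO, with 0.17 and 0.27 in replicates 1 and 2, and -0.03 in Tg, with -0.13 and 0.09. Groups did not overlap for 4 genes that were higher in DD in DMSO (FDFT1, DHCR7, ACAT2 and INSIG2; 11.1% of all genes) and for 3 in Tg (SQLE, INSIG1 and ACAT2; 10.2%). They did not overlap for SREBF1, lower in DMSO (4.7% of all genes), or for SREBF1 and FADS1, lower in Tg (6.06%).

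**Figure D3:**
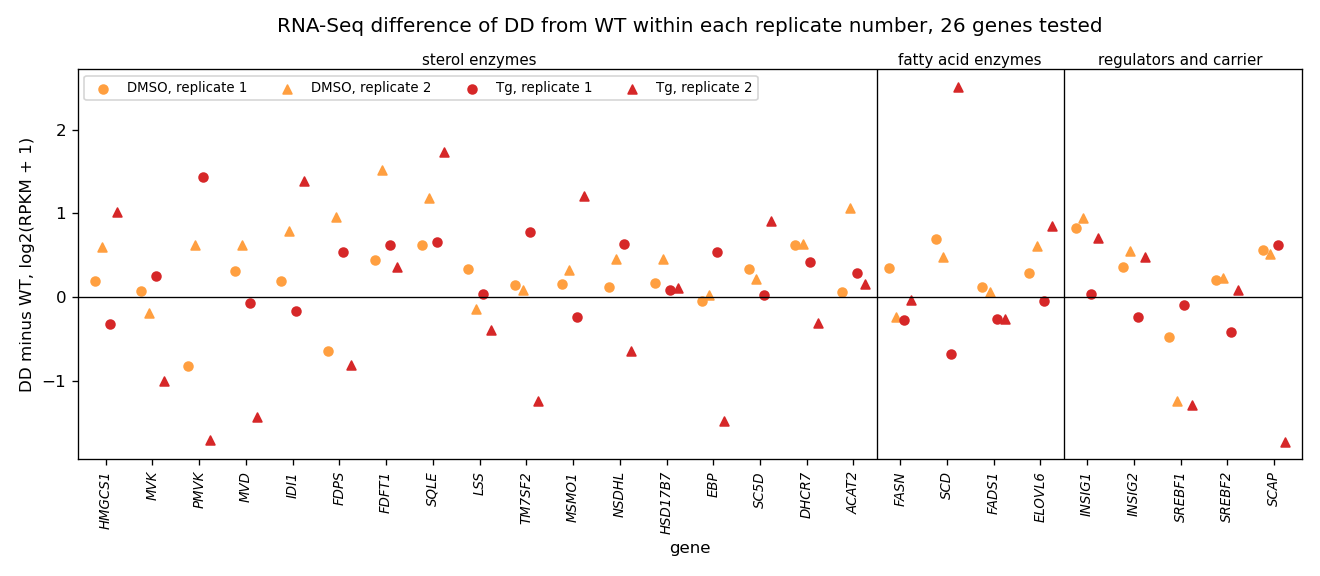
Difference of DD from WT within each replicate number, in log2(RPKM + 1), for the 26 genes tested in RNA-Seq; orange is DMSO, red is Tg, circles are replicate 1 and triangles replicate 2. ACAT2, FDFT1, HSD17B7, INSIG1, SC5D and SQLE have all 4 points above 0 and SREBF1 all 4 below. Tg replicate 2, which holds the library that stands apart, gives the extreme points, such as 2.51 for SCD.

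A further comparison asked which of these mRNAs were recovered with the cap-binding domain of eIF3d. Against input RNA, 9 of 28 genes rose in IP in DMSO (32.1%, against 23.2% of all 9813 genes called) and 4 of 28 in Tg (14.3%, against 16.2%). Counted as higher in IP were 21.4% and 14.6% of all genes, and as lower 1.75% and 1.62%, among which there was no pathway gene. The 9 were SCD, SQLE, FASN, IDI1, SREBF1, SREBF2, LSS, SCAP and FADS2, and the 4 were SCD, IDI1, SQLE and SREBF1. CYP51A1 and STARD4 averaged under 1 RPKM in the inputs and were not tested. The share called was above that of the whole table in DMSO and below it in Tg, and that difference was not tested. All genes were higher in IP on the median, by 0.96 on the log2 scale in DMSO and 0.87 in Tg, so values are also given relative to that median. Both IP libraries of a treatment were above both of its inputs for 19 of the 28 genes in DMSO and 22 in Tg. The share of all genes with that separation was not counted, so it does not set a gene apart below.

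SCD (ENSG00000099194.5) was at 27.2 and 5.27 RPKM under DMSO and 31.2 and 9.83 under Tg in the inputs, and at 90.3 and 136 under DMSO and 88.6 and 113 under Tg in the IP. All 4 IP libraries were above all 4 inputs, and input DMSO replicate 2 was the lowest. The log2 difference was 3.07 ± 0.66 (adjusted p = 0.000318 in limma) in DMSO and 2.43 ± 0.66 (adjusted p = 0.00493) in Tg. SQLE was at 5.00 and 0.827 RPKM under DMSO and 3.32 and 3.26 under Tg in the inputs, and at 15.0 and 22.5 under DMSO and 15.9 and 23.8 under Tg in the IP. Its IP libraries were likewise all above its inputs, with log2 differences of 2.55 ± 0.65 (limma adjusted p = 0.00278) and 2.25 ± 0.65 (adjusted p = 0.00894). IDI1 was at 7.47 and 4.92 RPKM under DMSO and 4.47 and 1.91 under Tg in the inputs, and at 24.0 and 34.1 under DMSO and 13.3 and 26.8 under Tg in the IP. Here too IP and input did not overlap, with 2.06 ± 0.66 (limma adjusted p = 0.0167) in DMSO and 2.32 ± 0.66 (adjusted p = 0.00811) in Tg; IDI1 overlaps WDR37 and has named pseudogenes, so its reads are uncertain.

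FASN was at 16.4 and 2.49 RPKM under DMSO and 12.4 and 12.4 under Tg in the inputs, and at 25.3 and 71.2 under DMSO and 35.5 and 24.9 under Tg in the IP. The 4 IP libraries were again the highest, and input DMSO replicate 2 was far below the other inputs. FASN passed in DMSO (2.48 ± 0.67, limma adjusted p = 0.00481) and not in Tg (1.20 ± 0.67, adjusted p = 0.181), and the change between treatments itself did not pass (-1.29 ± 0.95, adjusted p = 1.000). Among the regulators, SREBF1 was at 1.70 and 0.648 RPKM under DMSO and 1.27 and 3.63 under Tg in the inputs, and at 4.86 and 10.6 under DMSO and 8.75 and 9.78 under Tg in the IP. All its IP values exceeded its inputs (limma: 1.97 ± 0.62, adjusted p = 0.0150 in DMSO; 1.66 ± 0.62, adjusted p = 0.0471 in Tg). SREBF2 was at 10.5 and 1.12 RPKM under DMSO and 9.88 and 5.60 under Tg in the inputs, and at 13.6 and 23.0 under DMSO and 19.5 and 13.7 under Tg in the IP. It rose in IP in DMSO (1.92 ± 0.66, limma adjusted p = 0.0248), where input replicate 2 was low.

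SCAP was at 12.6 and 3.04 RPKM under DMSO and 8.96 and 15.9 under Tg in the inputs, and at 17.3 and 35.6 under DMSO and 21.6 and 29.7 under Tg in the IP. It rose in IP in DMSO (1.81 ± 0.67, limma adjusted p = 0.0367). INSIG1 was at 19.6 and 14.0 RPKM under DMSO and 13.9 and 9.84 under Tg in the inputs, and at 41.6 and 48.7 under DMSO and 37.0 and 20.2 under Tg in the IP, and INSIG2 at 1.87 and 1.28 RPKM under DMSO and 1.84 and 1.14 under Tg in the inputs, and at 4.50 and 3.70 under DMSO and 5.11 and 5.44 under Tg in the IP. All IP values of both genes were above their inputs, although under median-ratio scaling the log2 difference was negative for INSIG1 in both treatments and for INSIG2 in DMSO. Neither passed in DMSO (limma adjusted p = 0.102 and 0.196) or in Tg (0.194 and 0.0964). HMGCS1 was at 4.11 and 0.335 RPKM under DMSO and 3.58 and 0.990 under Tg in the inputs, and at 5.33 and 7.53 under DMSO and 5.61 and 6.60 under Tg in the IP. Its inputs varied from 23 to 157 reads, and it did not pass (limma adjusted p = 0.0575 in DMSO and 0.134 in Tg).

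These calls rest on few libraries and on the replicate block: without the block, 0 of 28 genes were called in DMSO and in Tg, against 0.245% and 0.367% of all genes, and 14 and 6 had an unadjusted p under 0.05. The deviations of input DMSO and IP DMSO libraries of the same number correlated across genes with r = 0.002. Without input DMSO replicate 2, or without IP DMSO replicate 2, 0 of the 28 genes were called in DMSO, and without input DMSO replicate 1, 19 were. Without input Tg replicate 1, input Tg replicate 2 or IP Tg replicate 2, 0 were called in Tg, and without IP Tg replicate 1, 1 was; without either input DMSO library, 8 were. Median-ratio scaling, which places the all-gene median at -0.12 in DMSO and -0.15 in Tg, left 0 calls in both, against 0.296% and 0.866% of all genes. The scaling acts on RPKM before 1 is added, so the log2 shift differs with the level of a gene. Under it the log2 difference turned negative for 14 of the 28 genes in DMSO and 16 in Tg, FASN (-0.03), SREBF2 (-0.14) and SCAP (-0.20) in Tg among them. The log2 difference of SCD was 1.66 in DMSO and 1.18 in Tg, of SQLE 1.43 and 1.11, and of FDPS -1.16 and -1.34.

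IP over input was also compared with the all-gene median of the same pair of IP and input libraries. IP was above input in all 4 pairs for 20 of 28 genes (71.4%, against 59.4% of all genes). Of the 28, 11 lay above that median in all 4 pairs (39.3%, against 24.1% of all genes) and 7 below it in all 4 (25.0%, against 24.9%), so the share below was that of any genes. The 11 were SCD, SQLE, IDI1, FASN, SREBF1, LSS, SCAP, SC5D, INSIG1, MSMO1 and ELOVL6. The 7 were FDPS, TM7SF2, NSDHL, FDFT1, ACACA, MVK and HSD17B7. SCD had relative values of 1.31 and 2.88 in DMSO and 0.62 and 2.55 in Tg, with a mean of 1.84 ± 1.06 (SD over the 4 pairs, 2 from each treatment). The pairs share a number alone and the SD mixes the treatments, so it is not the spread of replicates of a single condition. SQLE had 1.04 and 2.11 in DMSO and 1.11 and 1.70 in Tg (mean 1.49 ± 0.51). At the other end FDPS, the farnesyl diphosphate synthase, had -0.73 and -0.88 in DMSO and -0.47 and -1.59 in Tg (mean -0.92 ± 0.48). FDFT1, next to SQLE in the path, had -0.53 and -0.60 in DMSO and -0.49 and -0.36 in Tg (mean -0.49 ± 0.10). Squalene synthase and squalene epoxidase, consecutive enzymes of the path, thus stood on opposite sides of the median in every pair. Genes with 10 named pseudogenes, as FDPS has, can lose or gain reads in counting.

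**Figure D4:**
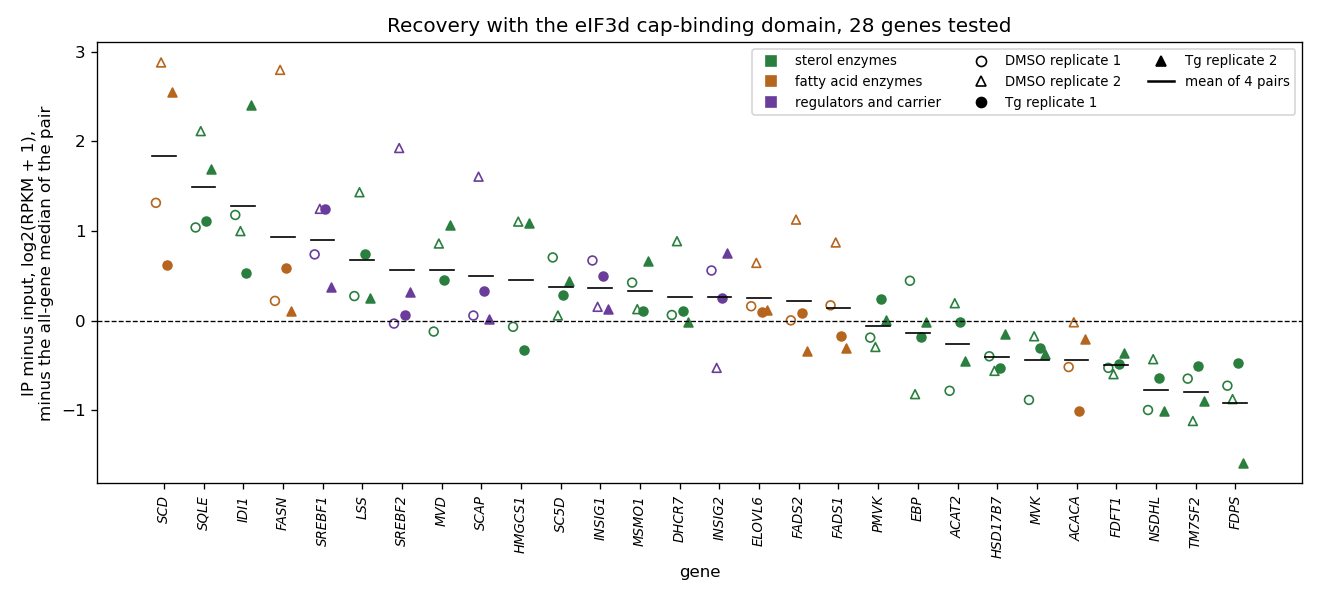
IP minus input in each of the 4 same-number pairs of libraries, in log2(RPKM + 1), after subtraction of the all-gene median of the pair, for the 28 genes tested; open symbols are DMSO, filled symbols Tg, circles replicate 1, triangles replicate 2 and bars the mean of the 4 pairs. SCD, SQLE and IDI1 lie highest, with means of 1.84, 1.49 and 1.28, and FDPS lowest at -0.92.

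The sterol enzymes were spread over both sides, with 5 of 17 above the median in all 4 pairs and 6 below it. Of 6 fatty acid enzymes 3 were above and 1 below, and of 5 regulators 3 were above and 0 below. The all-gene median itself ranged from 0.38 in DMSO replicate 1 to 1.57 in DMSO replicate 2, and was 0.85 and 0.84 in Tg. Gene length moved with recovery: over 9800 genes, the mean relative recovery had a Spearman rho of 0.45 with effective gene length, and over the 28 genes rho was 0.28. Recovery also had a rho of -0.26 with the replicate difference of RNA-Seq over 8622 genes, and -0.39 over the 26 genes in both fits. These are correlations across genes, which are not independent replicates, and the part of length in the recovery of these genes was not tested.

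Tg was also compared with DMSO within Subunit-Seq. No call was made among the 28 genes in input RNA (against 0.051% of all genes called), in IP RNA (0.0713%) or in IP over input (0.0611%). No pathway gene had an unadjusted p under 0.05 in limma, against 323, 165 and 86 of all genes, and voom called 0 of all genes in each (191, 80 and 15 at an unadjusted p under 0.05). In the inputs IDI1 was at 7.47 and 4.92 RPKM in DMSO and 4.47 and 1.91 in Tg, and INSIG1 at 19.6 and 14.0 and 13.9 and 9.84. In both, the 2 Tg libraries were below the 2 DMSO libraries, with log2 differences of -0.83 ± 0.66 and -0.47 ± 0.67. FADS1 was at 4.32 and 1.05 in DMSO and 4.67 and 4.47 in Tg (0.75 ± 0.63) and SC5D at 1.39 and 1.28 and 2.04 and 2.00 (0.37 ± 0.61), both higher in Tg without overlap. In all, 2 of 28 genes were higher without overlap, against 6.39% of all genes, and 3 lower (IDI1, INSIG1 and MSMO1), against 8.23%. INSIG1 was higher with Tg in WT cells of RNA-Seq and lower in the inputs of the tagged cells, with no call in either; the difference between these experiments was not tested.

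In IP RNA, INSIG1 was at 41.6 and 48.7 RPKM in DMSO and 37.0 and 20.2 in Tg, lower without overlap (-0.70 ± 0.67), as was NSDHL, which removes a carbon from sterol intermediates, at 17.8 and 31.5 and 17.1 and 13.3 (-0.62 ± 0.67). PMVK was at 67.9 and 57.0 and 68.5 and 145 (0.67 ± 0.64) and INSIG2 at 4.50 and 3.70 and 5.11 and 5.44 (0.30 ± 0.60), higher without overlap. In all, 2 of 28 genes were higher without overlap, against 18.1% of all genes, and 4 lower (INSIG1, NSDHL, ACAT2 and FDFT1), against 7.48%. The median of the 28 genes relative to all genes was -0.21, with -0.04 and -0.34 in replicates 1 and 2, and it was -0.57 without IP DMSO replicate 1 and 0.08 without IP DMSO replicate 2. None of the named genes passed (limma adjusted p = 1).

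Sterol enzymes were compared with fatty acid enzymes in each library. The median log2(RPKM + 1) of the 18 sterol enzymes was above that of the 6 fatty acid enzymes in all 16 libraries, by 0.57 to 1.43 in RNA-Seq, 0.37 to 1.80 in inputs and 0.78 to 1.00 in IP. Taken over means instead of medians, 14 of 16 libraries kept this order, and IP DMSO replicate 2 and IP Tg replicate 1 were at -0.02 and -0.03. In the inputs the gap was 1.16 and 1.80 in DMSO and 0.37 and 0.58 in Tg, so both Tg values were lower. Over means it was 0.58 and 1.26 in DMSO and 0.10 and 0.67 in Tg, and the treatments overlapped. Among genes tested, the median response to Tg in the inputs, relative to all genes, was -0.24 and -0.26 in replicates 1 and 2 for the sterol enzymes and 0.31 and 0.30 for the fatty acid enzymes. In RNA-Seq the corresponding difference of sterol from fatty acid enzymes was -0.16 and 0.14 in WT cells and 0.46 and -1.01 in DD cells, with no common sign. No test was made of these medians, which are over genes chosen by name, when earlier results of these data were known.

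**Figure D5:**
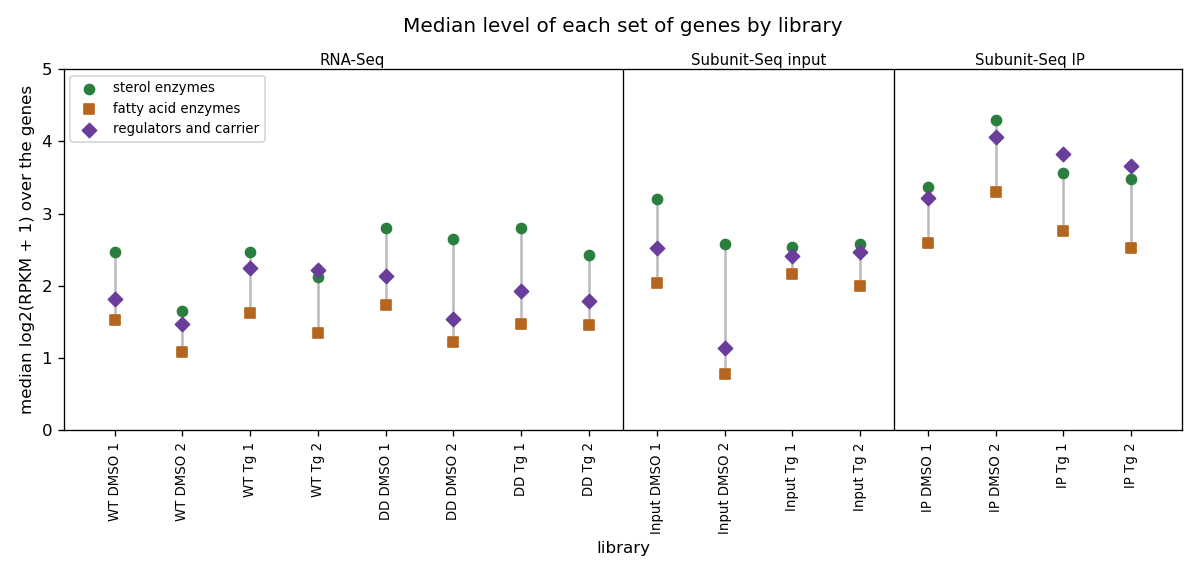
Median log2(RPKM + 1) of the sterol enzymes, the fatty acid enzymes and the regulators and carrier in each of the 16 RNA-Seq and Subunit-Seq libraries; grey lines join sterol and fatty acid medians. The sterol median is above the fatty acid median in all 16 libraries, and the gap is widest in input DMSO replicate 2, at 1.80.

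Other genes of the pathway gave context. No gene of the 3 further lists was called in any RNA-Seq contrast, where 7, 14 and 9 were tested. The counts in IP below stand beside 21.4% of all genes called higher in DMSO and 14.6% in Tg, and no difference from these shares was tested. Of 7 genes for SREBP cleavage and sterol-regulated degradation, 5 were tested in Subunit-Seq, and 4 rose in IP in DMSO and 3 in Tg. RNF145, a sterol-responsive ubiquitin ligase, had log2 differences of 2.41 ± 0.66 and 2.52 ± 0.66, and RNF139, another ligase of the ER membrane, 2.39 ± 0.64 and 2.60 ± 0.64. ERLIN1, an ER scaffold protein, had 1.87 ± 0.62 and 1.76 ± 0.62. Of 13 tested genes for acetyl-CoA supply, elongation and lipid assembly, 7 rose in IP in DMSO and 2 in Tg. ACLY, which makes cytosolic acetyl-CoA, had 2.23 ± 0.67 in DMSO, MID1IP1, which assists acetyl-CoA carboxylase, 2.01 ± 0.67 and 2.02 ± 0.67, and ACSL3, which activates fatty acids, 1.99 ± 0.62 and 1.71 ± 0.62. Of 7 tested genes for sterol transport, storage and LXR targets, 2 rose in DMSO and 0 in Tg, and LBR, a sterol reductase of the nuclear envelope, had 2.35 ± 0.66 and OSBP, a sterol carrier, 1.90 ± 0.63 in DMSO. None of these lists had a called gene that was lower in IP.

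The m6A lists give 1 set of sites for each genotype and treatment, with no replicate and unknown depth, so they were only counted. Over the spans of the 30 genes there was 1 site in WT DMSO, 0 in WT Tg, 0 in DD DMSO and 4 in DD Tg. The lists held 3000, 1572, 1796 and 5050 sites, and 11.5%, 5.76%, 6.39% and 19.1% of 9145 tested genes with a span had a site. In WT DMSO the site was in HMGCS1 (chr5:43297043, GRCh38, on the strand of the gene). In DD Tg 2 sites fell in the span of DHCR7, 1 on its strand (chr11:71444126) and 1 on the other (chr11:71448717), 1 in EBP (chrX:48528479) and 1 in SREBF1 (chr17:17812260). The table of spans gives no exons, so whether a site is exonic, intronic or in a UTR was not analysed here. With so few sites the lists do not separate the pathway from other genes.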

How the data were processed

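RNA-Seq, Subunit-Seq and m6A-eCLIP of HEK293T cells were analysed from the deposited tables. The authors deposited RPKM (reads per kilobase and library size) over 58721 genes, 1 table for RNA-Seq and 1 for each replicate of Subunit-Seq. Symbols were found for 99.2% of identifiers. Per the submitters' processing notes, cutadapt, STAR, DESeq2 and BWA were used, with no role given, on GRCh38; the gene counter and annotation are not given in the sources used here. Per the labels' protocols, RNA-Seq used polyadenylated RNA and a kit not named as directional, and Subunit-Seq a directional kit after anti-HA precipitation, TEV release and enzymatic removal of contaminating RNA. The m6A site positions are the authors' other deposited files, without score.

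Low RPKM values are whole multiples of what 1 read is worth. This gave reads, whole within 0.02, for 26179 of 26179 genes above 0 in at least 3 libraries. Many multiples were tried, so for genes above 0 in few libraries such a fit is no check of the reads. The reads were used for depth and for voom. Tests used limma 3.58.1 in R 4.3.3 on log2(RPKM + 1), with an intensity trend. Tests were two-sided, p-values were adjusted by Benjamini-Hochberg over every gene in the fit, and 0.05 was the threshold. Log2 differences on this scale understate changes of low genes. RNA-Seq genes needed a mean of 1 RPKM over the 8 libraries, Subunit-Seq genes over the 4 inputs. In Subunit-Seq the replicate number entered as a block, since its tables were deposited per replicate and may have been normalised separately; levels set across replicates share that limit. Its prior degrees of freedom were estimated as infinite, so each SE is the spread that the trend gives for genes of that level. A gene's own spread between replicates does not enter it. The RNA-Seq fit had no block. The fits were also run on simulated data whose noise was independent between libraries. Differences shared by a replicate number were not simulated, so that run does not bear on them.

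The members and lists were chosen with earlier results of these data known, and 1 gene of the other lists is not reported here. By rule, values in every sample are given for SREBF1, SREBF2, SCAP, INSIG1, INSIG2, HMGCS1, SQLE, IDI1, FASN and SCD. To these come, per contrast, the 4 largest called members or, with none called, the 2 largest in each direction whose groups do not overlap, and up to 3 called genes of the other lists, with HSPA5, DDIT3, TRIB3, ATF4 and EIF3D as stress references. Alternatives were another pseudocount (0.1), no filter, median-ratio scaling, voom, a robust prior, the other choice of block and each library left out. Those added after seeing the data were the block without DD Tg replicate 2, the within-pair ratios, and median-ratio scaling of the RNA-Seq pairs.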

Additional observations from a re-analysis of the deposited data

How the results depend on the processing

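The replicate numbers were compared as possible pairs: across genes, the deviations of libraries with the same number correlated with r of 0.134 to 0.864 between RNA-Seq groups and 0.002 to 0.510 between Subunit-Seq groups. With only 2 numbers in a group, libraries are taken to share a number alone. With the replicate block, 0 of the 26 genes were called in each of the 5 RNA-Seq contrasts, and also when DD Tg replicate 2 was left out as well. With it, 67 and 77 of all genes had an unadjusted p under 0.05 for Tg in WT and DD cells, 67 for the interaction, and 227 and 254 for DD cells against WT cells under DMSO and under Tg. Among these was 1 pathway gene, SQLE, in DD against WT cells under Tg. Leaving out DD Tg replicate 2 as well gave 459, 553, 636, 974 and 1052 in the same order, with 1, 2, 1, 5 and 1 pathway genes, and 3 of all genes were called for DD against WT cells under DMSO. In every RNA-Seq contrast and in the 3 Subunit-Seq contrasts of Tg with DMSO, 0 genes of the pathway were called under each alternative run, leaving out each library included. For IP against input, without the replicate block the counts of 9 in DMSO and 4 in Tg became 0 and 0. They became 0 and 0 with no filter on low values and with median-ratio scaling, 5 and 2 with a pseudocount of 0.1, and 4 and 0 with voom; the robust prior left 9 and 4. Leaving out 1 library each gave 0 to 19 in DMSO and 0 to 8 in Tg; a lone library is then assumed to vary like the other groups. The median of the pathway genes relative to all genes moved by at least its spread between replicates in 25 cases and by less in 120. It ranged from 0.14 to 0.27 for Tg in WT cells, -0.10 to 0.07 for Tg in DD cells and -0.32 to -0.07 for the interaction. For DD against WT cells it ranged from 0.16 to 0.30 under DMSO and -0.17 to 0.06 under Tg, and for IP against input from 0.13 to 1.15 in DMSO and -0.04 to 0.77 in Tg. For inputs it ranged from -0.30 to 0.15 and for the change of IP over input from -0.41 to 0.04. Of 257 values not called, 14 passed under at least 1 alternative. The sterol median was above the fatty acid median in 16 of 16 libraries, in 14 over means and in 16 with a pseudocount of 0.1. With gene spans extended by 1000 bases, m6A sites numbered 2 in WT DMSO, 1 in WT Tg, 0 in DD DMSO and 7 in DD Tg. The cause of each of these shifts was not tested. Depth limits the lowest genes: 13 of 240 RNA-Seq values rest on under 20 reads, and a value of 0 leaves room for an expected count of up to about 3 reads.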
